A study of Mus musculus with 9 samples.

Results

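The genes described here are 10 members of the signalling pathways of bone morphogenetic proteins (BMPs) and transforming growth factor-beta (TGF-beta). They were taken by symbol from the 31053 genes of the count tables, and no threshold on their values was used, although the list was drawn up with earlier results of these data known. They are the SMADs Smad1, Smad2, Smad3, Smad4, Smad5 and Smad7, the type I receptors Bmpr1a, Bmpr1b and Tgfbr1, and the type II receptor Bmpr2, and all 10 were found. Their RNA was counted in nuclei of neurons, glia and vascular cells from the pooled cortex and hippocampus of 9 mice, with 1 library per mouse and 3 mice per group. The study asked what the overexpression of a mucin-type O-glycan enzyme in brain endothelial cells (BECs) does in aged mice.

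All mice were male, of wild-type genotype and on the C57BL/6 background, and all had received an adeno-associated virus (AAV) 8 weeks before the tissue was taken. The first group held young mice of 5 months given AAV-EGFP, in which the virus carries only a green fluorescent protein. The second group held aged mice of 19 months given the same control virus. The third group held aged mice of 19 months given AAV-B3GNT3, whose virus encodes the fluorescent protein together with B3GNT3, a glycosyltransferase that extends core O-glycans. The capsid was PHP.V1, which favours brain vessels, and a short CLDN5 promoter drove expression, which is meant to restrict it to endothelial cells. No group without virus was included. The study names the National Institute on Aging colony as the source of its aged mice and Jackson Laboratories for its young mice. Changes with age are therefore differences between aged AAV-EGFP and young AAV-EGFP mice, in which age and supplier cannot be told apart.

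BMP and TGF-beta ligands bind pairs of type II and type I receptors, and the type I receptor then phosphorylates a receptor SMAD. BMP receptors act on SMAD1 and SMAD5, whereas the TGF-beta receptor acts on SMAD2 and SMAD3. Both branches share SMAD4, which carries the receptor SMADs to their target genes in the nucleus, and both are held back by SMAD7. In the brain these pathways are known for their parts in the differentiation of neural stem cells and astrocytes, the identity of microglia and the stability of vessels.

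The 9 libraries held 47332047 to 79964605 unique molecular identifiers (UMIs, each counting 1 RNA molecule) in 6331 to 10264 barcodes, and 70327 of 77823 barcodes were kept. Any pair of libraries shared 7 to 37 barcodes, and replicate libraries differed by more than sampling noise, with a chi-square of 11.02 to 41.29 per degree of freedom. The RNA of B3gnt3 itself gave 7, 3 and 1 UMIs in the BECs of the young mice, 0 in each aged AAV-EGFP library, and 0, 2 and 4 in the aged AAV-B3GNT3 libraries, which is too few to check the labels. Nuclei were assigned to classes by clusters and marker genes, and UMIs were summed per mouse and class, so that mice are the replicates. The 9 classes tested were excitatory neurons (20371 nuclei), inhibitory neurons (8212), astrocytes (8417), oligodendrocytes (20366), oligodendrocyte precursors (2700), microglia (1924), BECs (767), pericytes (959) and fibroblasts (585). One of the 2 inhibitory clusters, with 3743 nuclei, carried all 7 markers of striatal neurons, although the labelled tissue is hippocampus and cortex. Its share of inhibitory nuclei was 28.2 to 55.9% in young mice, 39.2 to 54.3% in aged AAV-EGFP mice and 40.6 to 45.6% in aged AAV-B3GNT3 mice.

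The 10 genes lie on 8 chromosomes of the mouse genome (build GRCm38, GENCODE vM21 annotation) and all are protein-coding. Smad1 (ENSMUSG00000031681) spans chr8:79338395-79399518 on the minus strand, Smad5 (ENSMUSG00000021540) spans chr13:56703010-56742377 on the plus strand, and Smad3 (ENSMUSG00000032402) spans chr9:63646767-63757994 on the minus strand. Among the receptors, Bmpr1a (ENSMUSG00000021796) spans chr14:34410734-34503341 and Bmpr1b (ENSMUSG00000052430) spans chr3:141837136-142169425, both on the minus strand. Tgfbr1 (ENSMUSG00000007613) spans chr4:47353222-47414931 and Bmpr2 (ENSMUSG00000067336) spans chr1:59763400-59879014, both on the plus strand. Bmpr1b is the longest, at 332.3 kb. Smad5 overlaps 3 small genes on its own strand and Bmpr2 overlaps 1, so reads there could be assigned to either gene.

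The promoters of the 4 genes whose levels changed with age at the smallest adjusted p are shown, because 3 of them fell together in excitatory neurons and the other fell in oligodendrocytes. Each sequence is the 140 bases before the first start listed by RefSeq on GRCm38.p6 (of 3 for Smad5 and Bmpr1b and 2 for Tgfbr1), 5′ to 3′ on the strand of the gene. Capitals mark the GC box (GGGCGG, or CCGCCC on the other strand), the core of Sp1 sites, and the SMAD box (CAGAC, or GTCTG on the other strand). Only stretches that overlap no annotated exon were to be shown.
Tgfbr1, chr4:47353082-47353221, plus strand: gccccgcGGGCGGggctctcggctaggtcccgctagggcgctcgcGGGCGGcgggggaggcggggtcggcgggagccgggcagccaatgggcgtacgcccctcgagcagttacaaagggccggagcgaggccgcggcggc
Smad5, chr13:56702870-56703009, plus strand: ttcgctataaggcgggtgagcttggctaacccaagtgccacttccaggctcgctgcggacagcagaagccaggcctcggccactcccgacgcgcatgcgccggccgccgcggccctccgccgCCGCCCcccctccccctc
Smad3, chr9:63757995-63758134, minus strand: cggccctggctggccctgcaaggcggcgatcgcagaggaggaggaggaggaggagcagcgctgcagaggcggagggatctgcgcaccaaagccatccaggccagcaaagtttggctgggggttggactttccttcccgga
Bmpr1b, chr3:141982265-141982404, minus strand: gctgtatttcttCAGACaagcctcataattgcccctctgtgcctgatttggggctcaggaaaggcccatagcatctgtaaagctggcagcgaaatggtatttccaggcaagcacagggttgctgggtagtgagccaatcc

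At the first listed start, the only one read here, Bmpr1b had the lowest share of G and C of the 7 genes with a listed promoter. That start lies inside the span that GENCODE gives the gene. Its promoter window of 300 bases held 48.3% G and C with 5 CpG sites, no GC box and 1 SMAD box, while those of Tgfbr1, Smad5 and Smad3 held 74.7, 63.0 and 67.7% G and C with 34, 31 and 25 CpG sites. Over 27025 genes with a listed promoter, the median was 52.7% G and C with 7 CpG sites. At least 1 GC box was found in 35.9% of them and at least 1 SMAD box in 49.7%. Within these windows Tgfbr1 and Smad3 each had 2 GC boxes, Smad5, Smad1 (65.0% G and C) and Bmpr2 (59.3%) each had 1, and Bmpr1a (79.3%) had 4. The palindrome GGCGCC, which BMP SMADs can bind, was in the windows of Smad5, Bmpr1a, Tgfbr1 and Bmpr2 and in 12% of all promoters. Such matches describe the letters only. The other 3 genes are Smad2 (ENSMUSG00000024563, chr18:76241580-76310963, plus strand), Smad4 (ENSMUSG00000024515, chr18:73639009-73703780, minus strand, with 1 gene on the opposite strand) and Smad7 (ENSMUSG00000025880, chr18:75367529-75395935, plus strand).

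Each gene had its own order of classes. Levels are given as CPM (UMIs scaled to the TMM-adjusted total of the class in that mouse), as the mean over 9 mice with the SD, and classes were formed from the same nuclei, so these levels carry no test. Tgfbr1, the type I receptor for TGF-beta, was far higher in microglia than elsewhere, at 2184 ± 112 CPM. Fibroblasts followed at 260 ± 52.9 CPM, an 8.39-fold lower level with no overlap between mice, and excitatory neurons were lowest at 11.7 ± 4.50 CPM. Bmpr1b, a type I receptor for BMPs, was an astrocyte gene at 739 ± 97.7 CPM, 7.81-fold above fibroblasts (94.6 ± 69.9 CPM). It was lowest in inhibitory neurons, at 7.0 ± 4.24 CPM, and in pericytes 1 library had none of its UMIs. Bmpr1a, the other type I receptor for BMPs, was more even. Its highest mean was in fibroblasts (385 ± 58.6 CPM), pericytes (272 ± 64.4 CPM) and astrocytes (264 ± 27.0 CPM) came next, and excitatory neurons were lowest (74.7 ± 7.36 CPM). Bmpr2, the type II receptor for BMPs, was highest in BECs at 1136 ± 151 CPM, 3.20-fold above fibroblasts at 355 ± 66.6 CPM and with no overlap.

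Between the highest and the lowest class the SMADs differed 3.70-fold (Smad1) to 17.1-fold (Smad7), and the receptors 5.15-fold (Bmpr1a) to 187-fold (Tgfbr1). Smad1 was highest in BECs at 192 ± 96.6 CPM and lowest in excitatory neurons at 52.0 ± 6.80 CPM, and all 8 pairs of neighbours in its order overlapped over the mice. Smad5 was highest in pericytes (67.7 ± 30.6 CPM), and its bottom steps did not overlap: astrocytes at 35.5 ± 6.98 CPM lay above inhibitory neurons at 17.7 ± 2.82 CPM, which lay above excitatory neurons at 8.14 ± 2.69 CPM. Smad2 was highest in microglia (122 ± 25.8 CPM), with excitatory neurons at 38.4 ± 3.89 CPM and inhibitory neurons lowest at 31.7 ± 4.01 CPM. Smad3 was also highest in microglia (257 ± 49.5 CPM), but excitatory neurons had rank 3 at 120 ± 41.0 CPM and oligodendrocytes last at 42.9 ± 17.1 CPM, and again all 8 neighbours overlapped. Smad4, the shared partner, ran from 262 ± 59.3 CPM in fibroblasts to 52.3 ± 6.47 CPM in excitatory neurons, the latter below inhibitory neurons (78.2 ± 12.8 CPM) without overlap. Smad7, the inhibitor, had 3 high classes, with 318 ± 118 CPM in BECs, 282 ± 36.2 CPM in oligodendrocytes and 173 ± 26.6 CPM in microglia. Oligodendrocytes and microglia did not overlap, and neither did microglia and fibroblasts (53.8 ± 22.3 CPM). A neuronal class thus had the lowest mean for every gene but Smad3 and Bmpr2, which were lowest in oligodendrocytes. CPM is a share of the RNA of a class, and the classes differed in depth. The median UMIs per nucleus were 8432 to 12266 over the mice in excitatory neurons and 1682 to 2416 in BECs. The order of classes per nucleus may differ and was not computed.

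**Figure D1:**
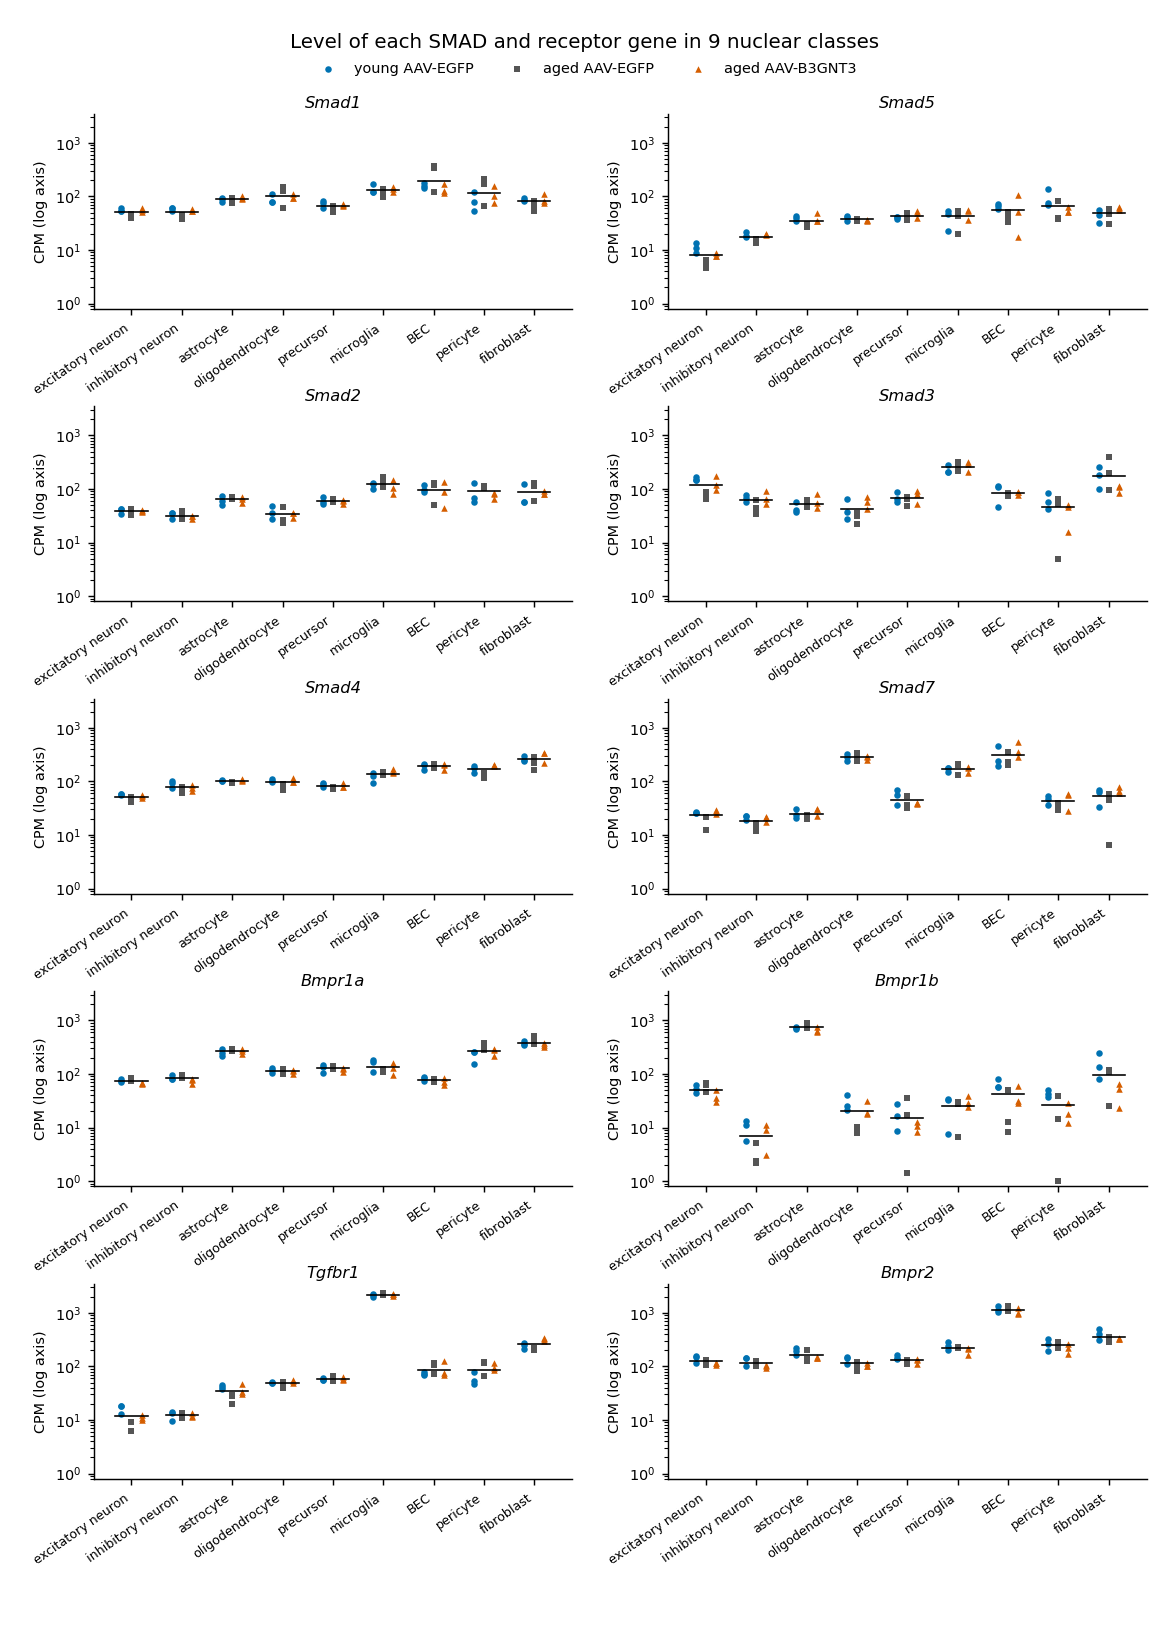
Level of each of the 10 genes (CPM, log axis) in 9 nuclear classes, where each point is 1 mouse of the young AAV-EGFP, aged AAV-EGFP or aged AAV-B3GNT3 group and the black line is the mean over 9 mice; values under 1 CPM are drawn at 1. Tgfbr1 in microglia, Bmpr1b in astrocytes and Bmpr2 in BECs stand clear of every other class, whereas the points of most neighbouring classes overlap for the SMADs.

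In excitatory neurons 5 of the 10 genes were called lower in aged AAV-EGFP mice than in young mice, and none was called higher. Tgfbr1, Smad5 and Smad3 fell by about 1 on the log2 scale, and Smad4 and Smad1 fell by less. These calls come from the quasi-likelihood test of edgeR with an adjusted p under 0.05 over all genes of the class, at which 14.3% of the 16912 genes tested were called in this comparison and 6.74% were called lower. The 10 genes had a median log2 change of -0.35, against 0.02 over all genes tested.

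Tgfbr1 measured 13.2, 18.4 and 18.4 CPM in the young mice and 9.37, 6.16 and 6.28 CPM in the aged AAV-EGFP mice. Every aged mouse lay below every young mouse, and the log2 change was -1.21 ± 0.19 (SE; edgeR adjusted p = 0.00601). Smad5, a SMAD of the BMP branch, measured 8.79, 13.2 and 10.7 CPM in the young mice and 6.54, 5.11 and 4.6 CPM in the aged ones. Again the groups did not overlap, with a log2 change of -1.02 ± 0.18 (SE; edgeR adjusted p = 0.00896). Both are scarce in these nuclei, but the sums behind them were 121 to 361 UMIs per mouse for Smad5 and 165 to 503 for Tgfbr1.

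Smad3, the TGF-beta branch SMAD that excitatory neurons carry at a higher level than most classes, measured 148, 148 and 167 CPM in the young mice. The aged AAV-EGFP mice had 87.6, 78.4 and 63.8 CPM, all below the young range. The log2 change was -1.01 ± 0.19 (SE; edgeR adjusted p = 0.00963), and without young replicate 3 the adjusted p rose to 0.0521. Smad4, the common partner of both branches, was lower in a narrower way, from 59.1, 58.8 and 56.9 CPM to 51.3, 40.9 and 44.7 CPM. Its log2 change was -0.35 ± 0.10 (SE; edgeR adjusted p = 0.0423). Smad1, the other BMP-branch SMAD, went from 54.1, 54.6 and 60.0 CPM to 45.8, 39.98 and 46.8 CPM, also without overlap, with a log2 change of -0.35 ± 0.10 (SE; edgeR adjusted p = 0.0431). The calls of Smad4 and Smad1 were lost in the fit with only the compared groups (0.0555 and 0.0542), that of Smad1 also with no filter on low counts (0.0525), and both without any 1 of aged AAV-EGFP replicates 2 and 3, aged AAV-B3GNT3 replicate 1 and young replicates 1, 2 and 3, with adjusted p of up to 0.146 for Smad4 and 0.160 for Smad1 in edgeR.

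The other 5 genes did not pass. Smad7 had 26.3, 27.1 and 25.8 CPM in young mice and 22.1, 12.7 and 21.5 CPM in aged AAV-EGFP mice, without overlap, and its log2 change of -0.50 had an adjusted p of 0.0771 in edgeR. DESeq2, the study's method, called it (0.0433), where it called 16.9% of genes, and it was also called with no filter on low counts (0.0460), in the largest cluster (-0.62, 0.0245) and without aged AAV-EGFP replicate 1 (-0.64, 0.0341). Counting Smad7, 6 of the 10 genes had groups that did not overlap, while 35.8% of all genes tested had such groups. Bmpr2 had a log2 change of -0.27 (95% interval -0.55 to 0.00) and Smad2 one of -0.12 (-0.39 to 0.14). For the BMP type I receptors the values were 0.11 for Bmpr1a (-0.09 to 0.31) and 0.12 for Bmpr1b (-0.30 to 0.54).

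**Figure D2:**
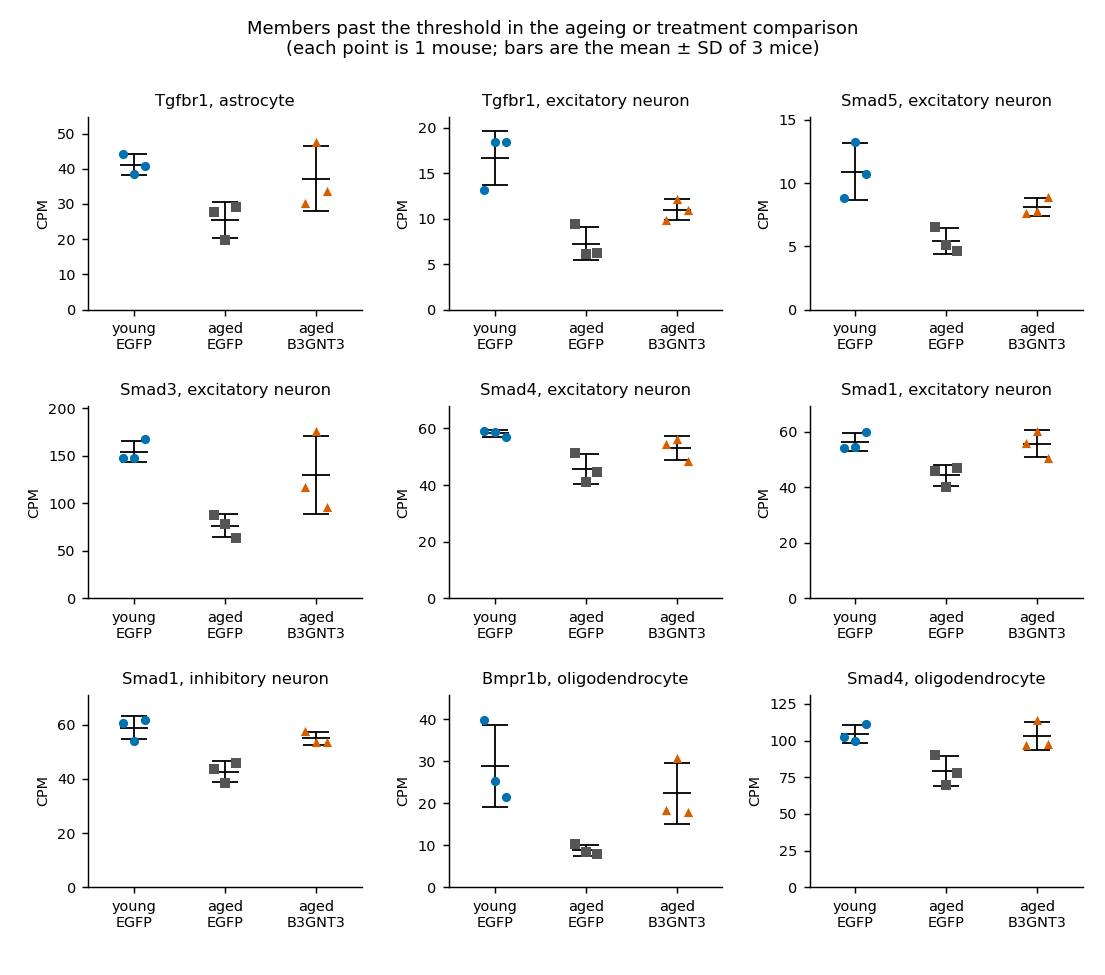
Level (CPM, axis from 0) of each gene and class past the threshold in the ageing or treatment comparison, with 1 point per mouse and the mean ± SD of 3 mice per group. In excitatory neurons the aged AAV-EGFP mice lie below the young mice for Tgfbr1, Smad5, Smad3, Smad4 and Smad1, and the aged AAV-B3GNT3 means lie between the means of the other groups.

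Excitatory neurons fell into 6 clusters, which allowed the same values to be read within narrower populations, each with its own TMM scaling. These counts share the mice of the class test and add no replicates. The mean of the aged AAV-EGFP mice was below that of the young mice in 6 of 6 clusters for Smad3, Smad5 and Bmpr2, and in 5 of 6 for Smad1, Smad4, Smad7 and Tgfbr1. It was below in 4 of 6 for Smad2, in 3 for Bmpr1b and in 1 for Bmpr1a. Every aged mouse was below every young mouse in 5 clusters for Smad5, in 4 for Smad3, in 3 each for Smad1, Smad7 and Tgfbr1 and in 2 for Smad4, and 8.34 to 16.1% of all genes showed this in a given cluster. On unscaled totals the count was 2 for Smad1 and for Tgfbr1 and 3 for Smad4. Depth was low in the cluster of 453 nuclei. There the smallest sum per mouse was 2 UMIs for Smad5 and Smad7, 3 for Smad3, 4 for Tgfbr1, 6 for Smad4 and 16 for Smad1. The share of all genes covers those that passed the filter on low counts in a cluster, a filter not applied to the 10 genes in these counts. Levels differed between the clusters: the mean of Smad3 in young mice ran from 23.1 CPM in the cluster of 453 nuclei to 197 CPM in the cluster of 6029 nuclei. The highest Tgfbr1 in young mice was in the cluster of 1181 nuclei that was led by Prox1, a gene of dentate granule cells. That cluster held 4.26 to 7.74% of excitatory nuclei in young, 2.89 to 7.01% in aged AAV-EGFP and 2.79 to 12.9% in aged AAV-B3GNT3 mice. The cluster of 3974 nuclei held 21.9 to 22.1, 8.35 to 25.5 and 14.8 to 27.9% in the same order. The part of these shares in the values of the whole class was not tested. In the largest cluster, Smad3 fell from a mean of 197 to 84.95 CPM and Tgfbr1 from 20.2 to 6.48 CPM, and both genes passed when only the largest cluster of each class was tested.

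**Figure D3:**
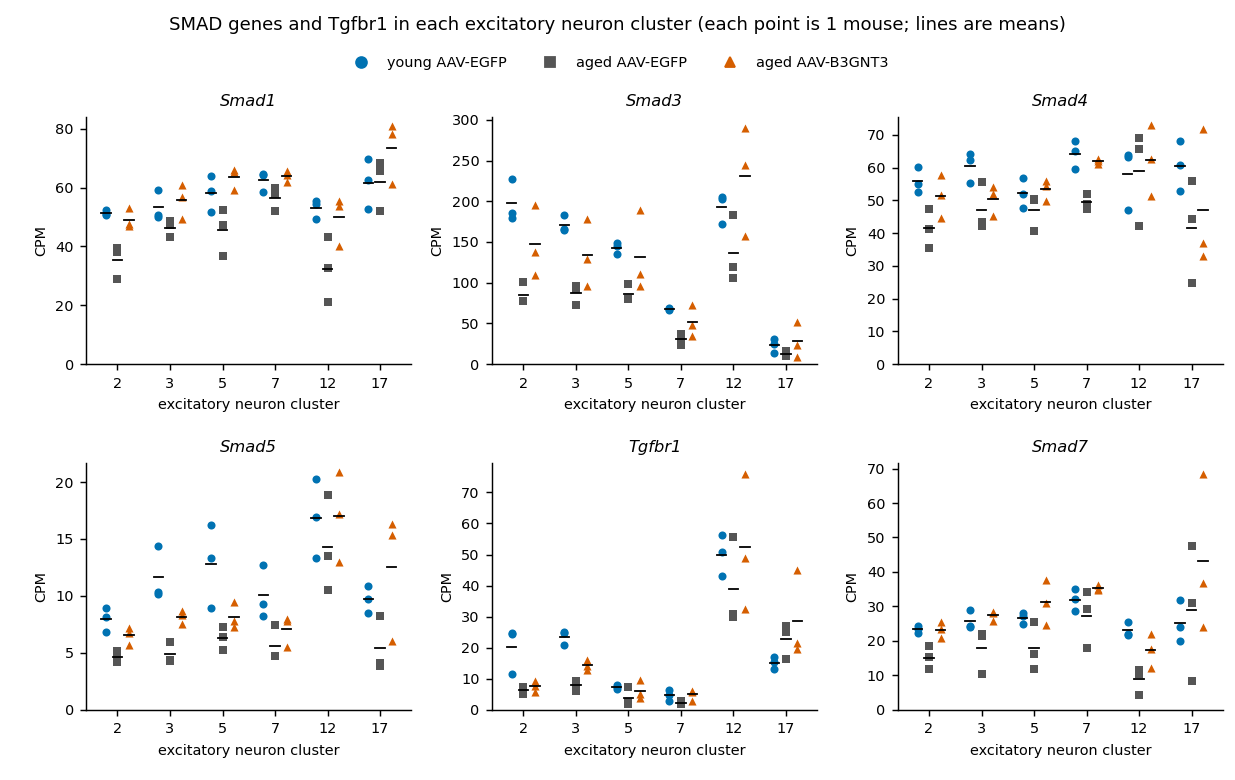
Level (CPM, axis from 0) of Smad1, Smad3, Smad4, Smad5, Tgfbr1 and Smad7 in each of the 6 excitatory neuron clusters, with 1 point per mouse and a line for each group mean. For Smad3 and Smad5 the aged AAV-EGFP mean is the lowest of the 3 groups in all 6 clusters, at levels that differ widely between clusters.

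Markers of other cells, given on unscaled totals here and for the other classes, moved with these results. In excitatory neurons, the summed level of the 8 oligodendrocyte markers was 197 to 238 CPM in young mice, 120 to 151 CPM in aged AAV-EGFP mice and 196 to 234 CPM in aged AAV-B3GNT3 mice, with 5 of 8 markers lower in every aged AAV-EGFP mouse than in every young mouse. The marker Cnp was higher in every aged AAV-EGFP mouse, at 6.83 to 7.35, 8.03 to 9.78 and 7.11 to 8.58 CPM in the same order. The 8 astrocyte markers summed to 596 to 740, 567 to 606 and 581 to 638 CPM in the same order. Slc1a2 and Slc4a4, whose groups overlapped, made up most of that sum, while 5 of 8 markers were lower in every aged AAV-EGFP mouse. The 10 microglia markers summed to 28.3 to 39.1, 41.7 to 43.6 and 31.6 to 42.6 CPM. The 7 inhibitory neuron markers summed to 138 to 214, 112 to 152 and 125 to 196 CPM, with 3 of 7 lower with age and 2 of 7 higher with treatment without overlap. Of the microglia markers, 3 of 10 were higher and 1 was lower in every aged AAV-EGFP mouse than in every young mouse. None of these markers was at 0 in every mouse, and their part in the results was not tested. After 5% of the UMIs of each class sum were subtracted in the profile of the whole sample, Tgfbr1, Smad5, Smad3, Smad4 and Smad1 still passed in excitatory neurons. The same share was taken from every library, so this cannot correct for RNA of other cells that differed between groups.

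In inhibitory neurons, 1 of the 10 genes, Smad1, passed with age and was lower, at a threshold that 3.87% of the 14436 genes tested passed (1.63% lower). Smad1 measured 60.8, 54.0 and 61.9 CPM in young mice and 43.8, 38.5 and 46.0 CPM in aged AAV-EGFP mice. The groups did not overlap, and the log2 change was -0.46 ± 0.11 (SE; edgeR adjusted p = 0.0399). The call was lost when likely doublets were kept (0.0521), with no upper limit on genes (0.0510), with finer clusters (0.0530), with clusters named against the median cluster (0.0522), in the fit with only the compared groups (0.0728) and without any 1 of 6 libraries, namely aged AAV-EGFP replicate 2 (0.155) or 3, aged AAV-B3GNT3 replicate 1 or 2 and young replicate 1 or 3. Which gene of this class passed thus turned on the processing. Smad5 had a log2 change of -0.39 (edgeR adjusted p = 0.126), but it was called with likely doublets kept (-0.55, 0.0420), with finer clusters (-0.56, 0.0428), with clusters named against the median cluster (-0.52, 0.0470) and without the striatal-like cluster, which leaves the largest cluster (-0.56, 0.0464). Smad7 (-0.62) and Bmpr1b (-1.66) each had an adjusted p of 0.0542 in edgeR, so neither passed, whereas DESeq2 called both (0.0342 and 0.00800), where it called 5.51% of genes. Smad7 was also called with likely doublets kept (-0.67, 0.0410), with finer clusters (-0.71, 0.0428), with clusters named against the median cluster (-0.68, 0.0440), with no filter on low counts (-0.61, 0.0207) and without aged AAV-EGFP replicate 1 (-0.75, 0.0208). Bmpr1b was called with no filter (-1.64, 2.09e-05), in the fit with only the compared groups (-1.65, 0.0458) and without aged AAV-B3GNT3 replicate 1 (-1.65, 0.0454), on sums as low as 16 UMIs per mouse. Smad3 (-0.52) was called with no filter (0.0237) and without aged AAV-EGFP replicate 1 (-0.77, 0.0383). In edgeR 6 of the 10 genes had an unadjusted p under 0.05, all lower, while 24.3% of all genes did in either direction. The median change of the 10 genes was -0.37, against 0.00 over all genes tested, and 4 had groups that did not overlap (26.7% of all genes). In inhibitory neurons the oligodendrocyte markers summed to 162 to 235 CPM in young, 137 to 163 CPM in aged AAV-EGFP and 189.9 to 205 CPM in treated mice, with 3 of 8 lower in every aged AAV-EGFP mouse than in every young mouse. The marker Cnp went the other way without overlap, at 6.40 to 9.28, 11.3 to 13.2 and 8.24 to 10.5 CPM in the same order. The astrocyte markers summed to 546 to 838, 786 to 928 and 709 to 857 CPM, but most of that sum was Slc4a4 (434 to 719 CPM in young and 706 to 861 CPM in aged AAV-EGFP mice). Aqp4, Slc1a2, Slc1a3 and Gjb6 were lower in every aged AAV-EGFP mouse than in every young mouse, with Slc1a2 at 86.8 to 137 CPM in young, 46.97 to 64.1 CPM in aged AAV-EGFP and 59.8 to 119 CPM in treated mice. Smad1 is more abundant in oligodendrocytes and astrocytes than in inhibitory neurons, as Bmpr1b is in astrocytes, and the part of these markers in the values of this class was not tested. Without the striatal-like cluster, 10 calls were made over all classes, against 9 with it.

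In astrocytes, Tgfbr1 fell and the other 9 genes did not pass (11.6% of 12638 genes passed, 6.94% lower). It measured 44.3, 38.4 and 40.7 CPM in young mice and 27.8, 19.7 and 29.0 CPM in aged AAV-EGFP mice. The ranges were separate, and the log2 change was -0.69 ± 0.21 (SE; edgeR adjusted p = 0.0435). The call was lost in DESeq2 (0.0554), with no upper limit on genes (0.0566), with 5% of UMIs subtracted as free RNA (0.0505) and without any 1 of aged AAV-EGFP replicates 2 (0.164) and 3, aged AAV-B3GNT3 replicate 3 and the 3 young libraries. In astrocytes the oligodendrocyte markers summed to 446 to 595 CPM in young mice and 271 to 410.1 CPM in aged AAV-EGFP mice, without overlap and with 3 of 8 lower in every aged AAV-EGFP mouse, and Tgfbr1 is more abundant in oligodendrocytes than in astrocytes. The marker Cnp was higher in every aged AAV-EGFP mouse (23.99 to 34.6 CPM) than in every young mouse (16.9 to 23.5 CPM). The excitatory markers summed to 491 to 577 CPM in young mice and 233 to 396 CPM in aged AAV-EGFP mice, and the microglia markers to 49.2 to 60.0 and 62.1 to 84.7 CPM. Tgfbr1 was far more abundant in microglia (2184 ± 112 CPM) than in astrocytes (34.6 ± 8.90 CPM) or oligodendrocytes (49.3 ± 4.81 CPM). The levels of astrocytes and oligodendrocytes overlapped over the mice. The part of all these markers in the result was not tested. Bmpr1b, the receptor that marks this class, measured 712, 748 and 677 CPM in young mice and 912, 865 and 729 CPM in aged AAV-EGFP mice. These ranges overlapped and it was not called. Bmpr2 was called lower in astrocytes without aged AAV-EGFP replicate 1 (-0.54, 0.0224).

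In oligodendrocytes, Bmpr1b and Smad4 were called lower in aged AAV-EGFP mice than in young mice. In this class 21.4% of 13207 genes were called and 10.2% were called lower. Bmpr1b measured 39.9, 25.3 and 21.5 CPM in young mice and 10.4, 8.29 and 7.87 CPM in aged AAV-EGFP mice. Its lowest young value was above its highest aged value, and the log2 change of -1.73 ± 0.29 (SE; edgeR adjusted p = 0.00283) was the largest fall called among the 10 genes. Smad4 measured 103, 99.6 and 111 CPM in young mice and 90.3, 70.0 and 78.0 CPM in aged AAV-EGFP mice. Its log2 change was -0.39 ± 0.13 (SE; edgeR adjusted p = 0.0460), a call that was lost in the fit with only the compared groups (0.0721), with no filter on low counts (0.0633), with no upper limit on genes (0.0563), with 5% of UMIs subtracted (0.0515) and without any 1 library other than aged AAV-EGFP replicate 1 and aged AAV-B3GNT3 replicate 2, with an adjusted p of up to 0.151. Bmpr2 had a log2 change of -0.43 (edgeR adjusted p = 0.0735) and was called with no filter (-0.44, 0.0365) and without aged AAV-EGFP replicate 1 (-0.63, 0.00774) or young replicate 1 (-0.56, 0.0446). Smad3 was called lower with no filter (-0.51, 0.0349), and Smad1 was called higher without aged AAV-EGFP replicate 1 (0.57, 0.0172).

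Bmpr1b is more abundant in astrocytes and in excitatory neurons than in oligodendrocytes, and markers of both moved with it. The 8 excitatory markers summed to 587 to 670.1 CPM in the oligodendrocytes of young mice, 243 to 418 CPM in those of aged AAV-EGFP mice and 456 to 572 CPM in those of aged AAV-B3GNT3 mice, so the sums did not overlap between any of the groups. Of these, 5 of 8 were lower with age and 4 of 8 higher with treatment without overlap. The 8 astrocyte markers summed to 397 to 791 CPM in the oligodendrocytes of young mice, 314 to 465 CPM in those of aged AAV-EGFP mice and 429 to 651 CPM in those of aged AAV-B3GNT3 mice. Of these markers, 5 of 8 (Slc1a2, Slc4a4, Gja1, Gjb6 and Ntsr2) were lower in every aged AAV-EGFP mouse than in every young mouse, and none was at 0. Slc1a2 measured 387, 238 and 187 CPM in young mice, 108, 169 and 95.4 CPM in aged AAV-EGFP mice and 256, 283 and 129 CPM in treated mice. Slc1a3, which overlapped, measured 212, 163 and 92.6 CPM, then 123, 207 and 192 CPM, then 202, 189.9 and 183 CPM. With age 5 of 8 astrocyte markers were thus lower without overlap, as Bmpr1b was, whereas with treatment 2 of 8 were higher without overlap. In aged AAV-B3GNT3 replicate 3, Slc1a2 (129 CPM) lay within the aged AAV-EGFP range, while Bmpr1b lay above its own. Astrocytes themselves made up 13.4 to 16.7% of the nuclei of young mice, 8.41 to 9.13% of aged AAV-EGFP nuclei and 7.58 to 15.3% of aged AAV-B3GNT3 nuclei. Of the 10 microglia markers in oligodendrocytes, 3 were higher in every aged AAV-EGFP mouse than in every young mouse. With treatment 2 of them were higher and 2 lower without overlap. The part of astrocyte, neuronal or microglial RNA in the result for Bmpr1b was not tested. With 5% of UMIs subtracted in the profile of the whole sample, Bmpr1b still passed in both comparisons. As the share was the same in every library, this cannot correct for RNA of other cells that differed between groups.

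**Figure D4:**
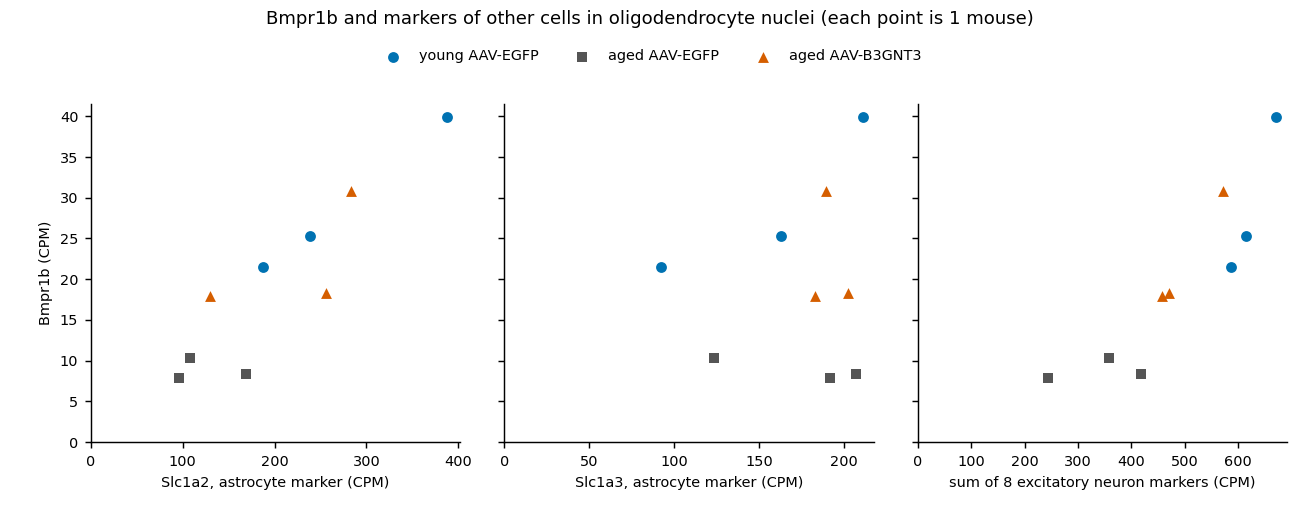
Bmpr1b (TMM-scaled CPM) in oligodendrocytes against the astrocyte marker Slc1a2 (left), the astrocyte marker Slc1a3 (middle) and the sum of 8 excitatory neuron markers (right), on unscaled totals (CPM), with 1 point per mouse in 3 groups and axes from 0. The aged AAV-EGFP mice lie lowest for Bmpr1b, for Slc1a2 they lie below every young mouse, and for the excitatory sum they lie below both other groups, whereas for Slc1a3 the 3 groups overlap.

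The comparison of aged AAV-B3GNT3 with aged AAV-EGFP mice asked what the endothelial enzyme changed in these genes. It uses the same aged AAV-EGFP libraries as the ageing comparison, so a value that is low in those libraries by chance gives opposite changes in both. Over 88 tests of a gene in a class, 1 passed, Bmpr1b in oligodendrocytes, which was higher with treatment (8.87% of genes were called in this class, 3.13% higher). The treated mice measured 18.3, 30.9 and 18.0 CPM, each above the aged AAV-EGFP range of 7.87 to 10.4 CPM. The log2 change was 1.34 ± 0.29 (SE; edgeR adjusted p = 0.0169), and it was not called without aged AAV-EGFP replicate 2 (0.0623), aged AAV-EGFP replicate 3 (0.0536) or aged AAV-B3GNT3 replicate 2 (0.0764). In this class 4 of the 8 excitatory markers and 2 of the 8 astrocyte markers were higher in every treated mouse than in every aged AAV-EGFP mouse, and their part in this rise was not tested.

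In excitatory neurons none of the 10 genes passed with treatment in edgeR, where 2.57% of genes were called. An unadjusted p under 0.05 was found for 7, against 23.2% of all genes, and DESeq2 called 4, against 8.92% of all genes. Smad3 measured 117, 176 and 96.0 CPM in the treated mice, all above the aged AAV-EGFP range of 63.8 to 87.6 CPM. Its log2 change was 0.76 ± 0.19 (SE), with an adjusted p of 0.0545 in edgeR and 0.00589 in DESeq2. It was also called with no filter (0.75, 0.00993), in the largest cluster (0.79, 0.0450) and without aged AAV-EGFP replicate 1 (0.87, 0.0388) or aged AAV-B3GNT3 replicate 3 (0.94, 0.0147). Tgfbr1 measured 9.90, 12.2 and 10.9 CPM and Smad5 7.64, 7.78 and 8.88 CPM, in both cases above each aged AAV-EGFP mouse. Their log2 changes were 0.61 (edgeR adjusted p = 0.0902) and 0.59 (0.0903), and DESeq2 gave 0.0413 and 0.0474, while without aged AAV-EGFP replicate 1 both passed in edgeR (0.82, 0.0277 and 0.74, 0.0442). In the largest cluster, Tgfbr1 in treated mice (9.27, 7.69 and 5.82 CPM) overlapped that in aged AAV-EGFP mice (7.02, 7.47 and 4.95 CPM). Smad7 measured 28.6, 24.3 and 28.8 CPM against 22.1, 12.7 and 21.5 CPM, a log2 change of 0.55 with an adjusted p of 0.0989 in edgeR and 0.0495 in DESeq2.

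Smad1 is a gene that the study named from these same samples as higher in neurons of treated aged mice, so its direction here is not independent evidence. In excitatory neurons it measured 56.0, 60.2 and 50.6 CPM in treated mice, above the 39.98 to 46.8 CPM of aged AAV-EGFP mice. Its log2 change was 0.33 ± 0.10 (SE; edgeR adjusted p = 0.0873), and without aged AAV-B3GNT3 replicate 3 the adjusted p was 0.0465. It was not among the 4 genes that DESeq2 called with treatment in this class, which was formed by other steps than in the study. In inhibitory neurons it measured 57.8, 53.7 and 53.5 CPM against 43.8, 38.5 and 46.0 CPM, with a log2 change of 0.36 (edgeR adjusted p = 0.128; 0.617% of genes were called). None passed there, 5 had an unadjusted p under 0.05, all higher (18.1% of all genes), DESeq2 called 0, and 4 of the 10 genes had groups that did not overlap in that class (22.8% of all genes). With no filter on low counts, Bmpr1b (1.25, 0.00212) and Smad3 (0.56, 0.0162) were called higher in inhibitory neurons. The BMP receptors had values of the other sign in excitatory neurons. The log2 change was -0.59 for Bmpr1b (edgeR adjusted p = 0.102; called with no filter at -0.60, 0.0438, and without aged AAV-B3GNT3 replicate 3 at -0.84, 0.0224) and -0.27 for Bmpr1a (0.107), and the Bmpr1a values of 65.8, 67.6 and 68.5 CPM lay below the aged AAV-EGFP values of 84.7, 84.7 and 74.4 CPM. In all, 6 of the 10 genes had groups that did not overlap in excitatory neurons, against 24.9% of all genes tested, and the median log2 change was 0.28, against 0.01 over all genes.

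Within the 6 excitatory clusters, the treated mean was above the aged AAV-EGFP mean in 6 of 6 for Smad1, Smad3, Smad4, Smad5, Smad7 and Tgfbr1, in 4 for Smad2 and in 1 for Bmpr2. It was above in 2 for Bmpr1b and in 1 for Bmpr1a. The counts of Smad2 and Bmpr2 turned with the scaling, since both were 6 of 6 on unscaled totals. Every treated mouse was above every aged AAV-EGFP mouse in 4 clusters for Smad1 and for Smad7, in 3 for Smad5, in 2 for Smad3 and Tgfbr1 and in 1 for Smad4, and 7.1 to 12.1% of all genes showed this in a given cluster. On unscaled totals these counts were 5, 5, 3, 4, 2 and 2 in the same order. The limits of depth and filter given for the clusters with age hold here too. For Bmpr1a and Bmpr1b the count was 1 each under both scalings. In the cluster of 5282 nuclei both went the other way without overlap, with Bmpr1b at 54.6 to 71.8 CPM in treated and 103 to 134 CPM in aged AAV-EGFP mice. Bmpr1a was also lower in every treated mouse in the cluster of 6029 nuclei, at 56.9 to 59.4 CPM against 68.8 to 76.6 CPM. In oligodendrocytes, Smad3 measured 56.8, 69.9 and 42.2 CPM with treatment and 21.8, 31.0 and 35.99 CPM without it. The ranges were separate, but the log2 change of 0.91 missed the threshold in edgeR (adjusted p = 0.0660). DESeq2 called it (0.0222), where it called 10% of genes, as did the fits with no filter (1.05e-05), with only the compared groups (0.0417) and without aged AAV-B3GNT3 replicate 3 (0.0399) or young replicate 1 (0.0410) or 3 (0.0329). Smad3 is more abundant in excitatory neurons than in oligodendrocytes. Excitatory markers in oligodendrocytes summed to 243 to 418 CPM in aged AAV-EGFP and 456 to 572 CPM in treated mice, and their part was not tested. Smad4 in oligodendrocytes measured 96.9, 114 and 97.9 CPM with treatment, above its 70.0 to 90.3 CPM without it, with a log2 change of 0.38 (edgeR adjusted p = 0.0852), and it was called without aged AAV-EGFP replicate 1 (0.51, 0.0251). In astrocytes none of the genes passed with treatment in edgeR (4.24% of genes were called) or DESeq2, and 3 had an unadjusted p under 0.05 (21.6% of all genes). Tgfbr1 had the smallest p of the class, with a log2 change of 0.55 (edgeR adjusted p = 0.143).

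**Figure D5:**
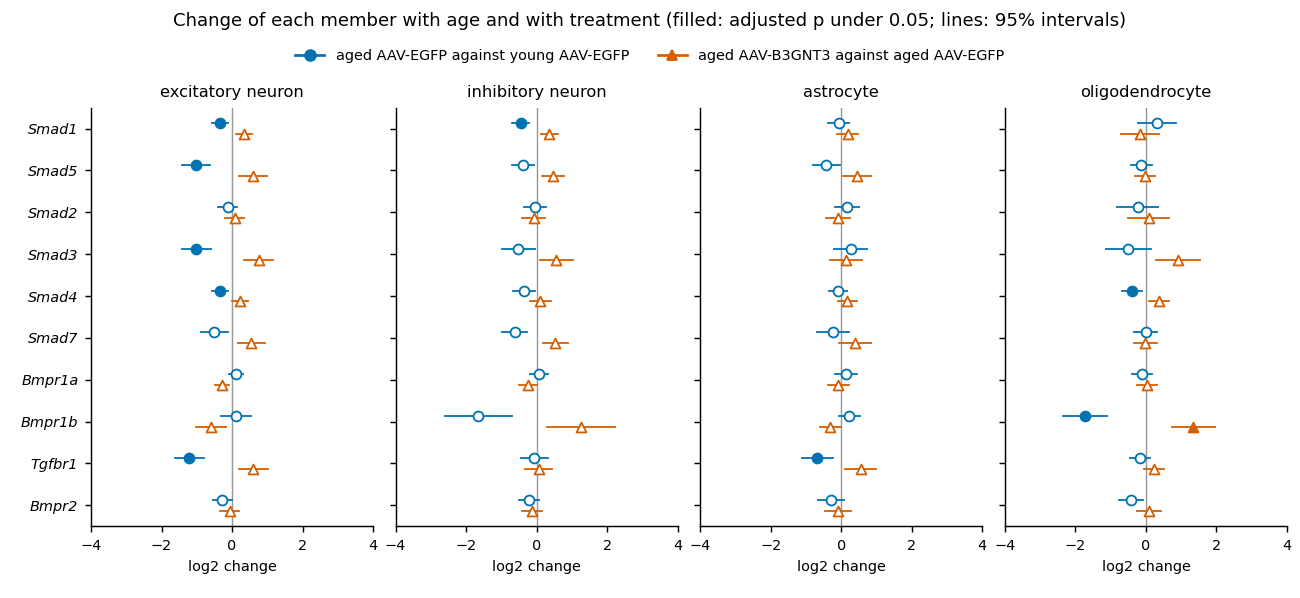
Log2 change of each of the 10 genes with age (circles, aged AAV-EGFP against young AAV-EGFP) and with treatment (triangles, aged AAV-B3GNT3 against aged AAV-EGFP) in 4 classes, with 95% intervals; filled symbols have an adjusted p under 0.05. In excitatory neurons 5 circles are filled, all left of 0, and no triangle is, while in oligodendrocytes Bmpr1b is filled in both comparisons, at -1.73 and 1.34.

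Against young AAV-EGFP mice, the aged AAV-B3GNT3 mice had 0 of 88 tests past the threshold in edgeR, 8 with an unadjusted p under 0.05 (1 higher and 7 lower) and 1 in DESeq2. Over all genes of the 9 classes, 14.5% of tests had an unadjusted p under 0.05 and 2.37% passed in DESeq2. The gene that DESeq2 called was Tgfbr1 in excitatory neurons, where 3.71% of genes were called by edgeR (0.672% in inhibitory neurons, 2.41% in astrocytes and 1.57% in oligodendrocytes). Its treated values of 9.90 to 12.2 CPM lay below the young values of 13.2 to 18.4 CPM, with a log2 change of -0.60 (95% interval -1.0 to -0.20; adjusted p = 0.0945 in edgeR and 0.0406 in DESeq2). In the largest excitatory cluster this change was -1.42, outside that interval, and was called (edgeR adjusted p = 0.0127). It was also called with clusters named against the median cluster (-0.75, 0.0328) and without aged AAV-EGFP replicate 1 (-0.60, 0.0421) or young replicate 1 (-0.73, 0.0497). Without young replicate 1, Bmpr2 was called lower as well (-0.46, 0.0472). The intervals of the other called genes in excitatory neurons included 0 for Smad3 (-0.66 to 0.16), Smad4 (-0.36 to 0.09) and Smad1 (-0.24 to 0.21), and lay below it for Smad5 (-0.82 to -0.04). These intervals do not show that treated and young mice were alike, since a change of 0.66 for Smad3 remains within them.

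Whether a gene changed differently between classes was tested on the difference in log2 CPM within each mouse, over pairs of neurons, astrocytes and oligodendrocytes. Of 60 tests per comparison, limma called 5 for ageing, 1 for treatment and 0 for treated against young mice in the adjusted p. An unadjusted p under 0.05 was found for 15, 8 and 5, against 19.1, 13.5 and 9.5% of all genes over the 6 pairs of classes. The change of Smad3 with age, -1.01 in excitatory neurons and an uncalled 0.27 in astrocytes, differed by -1.31 ± 0.17 (SE, log2; limma adjusted p = 0.0104), where 3.98% of genes differed between these classes. The changes of Tgfbr1 and Smad5 were lower in excitatory neurons than in oligodendrocytes, where they were -0.16 and -0.14 and not called, by -1.04 ± 0.17 and -0.87 ± 0.15 (SE; limma adjusted p = 0.0132 for both; 8.88% of genes differed). Bmpr1b changed in the other way: its fall in oligodendrocytes differed from its change in excitatory neurons by 1.76 ± 0.34 (SE; limma adjusted p = 0.0187) and from that in astrocytes by 1.87 ± 0.30 (SE; limma adjusted p = 0.0311; 2.3% of genes differed). With treatment, the change of Bmpr1b was lower in excitatory neurons than in oligodendrocytes by -1.90 ± 0.34 (SE; limma adjusted p = 0.0389; 2.46% of genes differed). No member passed between excitatory and inhibitory neurons, a pair in which 0% of genes passed in any comparison. For the pairs and comparisons with no member called, the share of all genes called was 2.65% with age between inhibitory neurons and astrocytes and 5.61% between inhibitory neurons and oligodendrocytes. With treatment it was 0.518% between excitatory neurons and astrocytes, 0% between inhibitory neurons and astrocytes, 0.637% between inhibitory neurons and oligodendrocytes and 0.0422% between astrocytes and oligodendrocytes. For treated against young mice it was 0.0324, 0, 0.00833, 0.0159 and 0% in the pairs of excitatory neurons with astrocytes and with oligodendrocytes, inhibitory neurons with astrocytes and with oligodendrocytes, and astrocytes with oligodendrocytes. All 6 of these calls were lost without young replicate 2 and with no filter on low counts.

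In microglia, where Tgfbr1, Smad3 and Smad2 were highest, none of the genes passed in any comparison in edgeR or DESeq2 (8.76% of genes were called by edgeR with age, 0.269% with treatment and 0% against young mice). None had an unadjusted p under 0.05, which 24.9, 13.2 and 11.4% of all genes had. Tgfbr1 measured 1992 to 2224 CPM in young mice, 2129 to 2344 CPM in aged AAV-EGFP mice and 2065 to 2250.0 CPM in treated mice, and the groups overlapped. Its depth there was 574 to 1071 UMIs per mouse. In oligodendrocyte precursors no gene reached an unadjusted p under 0.05 in any comparison, where 18.5, 11.1 and 12.1% of all genes did, DESeq2 called 0, and 0.548, 0.048 and 0.134% of all genes were called by edgeR.

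In BECs, the cells at which the vector is aimed, 9 of the 10 genes (all but Bmpr1b) had enough counts for a test and none passed in any comparison in edgeR or DESeq2, where edgeR called 0.324% of 4624 genes with age, 0.26% with treatment and 0% against young mice. An unadjusted p under 0.05 was found for 1 gene with age, 1 with treatment, Smad1 in both cases, and 0 against young mice, and for 13.5, 11.2 and 5.62% of all genes. Smad1 measured 160, 177 and 142 CPM in young mice, 123, 341 and 375 CPM in aged AAV-EGFP mice and 128, 115 and 169 CPM in treated mice. The 3 groups overlapped, since aged AAV-EGFP replicate 1 was low and the other replicates were high. Its log2 change with treatment was -1.05 (edgeR adjusted p = 0.220), and without aged AAV-EGFP replicate 1 it was -1.37 and was called (0.0128), as was a log2 change of 1.14 with age (0.0199). Bmpr2, the receptor that is most abundant in this class, measured 1031 to 1373 CPM in young mice, 1074 to 1346 CPM in aged AAV-EGFP mice and 939.8 to 1232 CPM in treated mice. Smad7 measured 198 to 454, 205 to 362 and 282 to 534 CPM in the same order, again with overlap. Counts were low in this class, at 15 to 59 UMIs per mouse for Smad1, and a simulated 2-fold change (log2 of 1) was recovered for 18.7% of genes in BECs but for 69.7% in excitatory neurons.

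In pericytes, none of the 9 genes tested (all but Bmpr1b) passed in edgeR or DESeq2 (4.44, 0.702 and 0.0826% of 4842 genes were called by edgeR). An unadjusted p under 0.05 was found for 3 genes with age, 1 with treatment and 1 against young mice, and for 20, 14.4 and 7.31% of all genes. The unadjusted p was under 0.05 for higher Smad1 (0.98), Tgfbr1 (0.76) and Bmpr1a (0.55) with age, with adjusted p of 0.164, 0.236 and 0.218 in edgeR. Without aged AAV-EGFP replicate 1, the change of Smad1 was 1.22 and was called (0.0276). Of these, Bmpr1a had groups that did not overlap, from 154 to 260 CPM in young mice to 278 to 381 CPM in aged AAV-EGFP mice. With treatment, Smad4 had 192 to 206 CPM, above the 118 to 142 CPM of aged AAV-EGFP mice, with a log2 change of 0.64 (edgeR adjusted p = 0.225). In fibroblasts none passed in edgeR or DESeq2 (0.0185, 0 and 0% of 5417 genes were called by edgeR). An unadjusted p under 0.05 was found for 0, 2 and 1 genes, and for 12.1, 8.62 and 9.32% of all genes. The gene against young mice was Bmpr1b, which was called lower with no filter (-1.70, 0.00278). With treatment Tgfbr1 measured 296 to 342 CPM, and 206 to 220 CPM without it, with an adjusted p of 0.475 in edgeR for the log2 change of 0.60.

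The other genes of these pathways came from a list of 73 ligands, receptors, antagonists, regulators and targets. In excitatory neurons 9 of 60 tested changed with age, 8 of them lower, with a median log2 change of -0.12. In that comparison 14.3% of all genes were called, a share close to that of the list. Among the receptors, Acvr1, a type I receptor for BMPs and activin, fell from 134, 137 and 146 CPM to 117, 84.2 and 81.0 CPM (log2 -0.57, edgeR adjusted p = 0.0157). Among the intracellular regulators, the SMAD corepressors Ski and Skil and the SMAD ubiquitin ligase Smurf1 fell by 0.71, 0.52 and 0.51 on the log2 scale (edgeR adjusted p = 0.0148, 0.0276 and 0.0214). Among ligands Bmp6 was lower (-0.97), among targets Tsc22d1 (-0.39) and Atoh8 (-2.39, at under 1 CPM), and the antagonist Grem1 was higher (0.74). With treatment 2 of 60 were called, both higher, where 2.57% of all genes were called. Ski measured 129, 161 and 107 CPM against 96.1, 68.6 and 73.5 CPM (0.74, edgeR adjusted p = 0.0384), and Tgfbr3, the coreceptor that presents TGF-beta, measured 68.0, 79.1 and 73.5 CPM against 54.2, 53.5 and 51.0 CPM (0.48, edgeR adjusted p = 0.0346). Against young mice, Grem1 (0.96) and Tgfbr3 (0.37) were higher in treated mice. In inhibitory neurons 0 of 50 were called in any comparison in edgeR, while DESeq2 called 3 with age, where it called 5.51% of all genes. DESeq2 called 1 with treatment and 1 against young mice, and its share of all genes in those comparisons is not reported here. In edgeR an unadjusted p under 0.05 was found for 10, 5 and 9 of 50 (24.3, 18.1 and 13.8% of all genes).

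In oligodendrocytes, the class with the highest share of all genes called with age (21.4%), 13 of 47 were called with age, 3 higher and 10 lower, and 4 of 47 with treatment (8.87% of all genes). Ltbp1, which holds TGF-beta in its latent form, measured 9.62, 7.75 and 6.49 CPM in young, 2.12, 3.90 and 1.87 CPM in aged AAV-EGFP and 6.58, 6.17 and 6.39 CPM in treated mice. It fell with age (-1.63, edgeR adjusted p = 0.00449) and was higher with treatment (1.29, 0.0245). The ligand Tgfb2 followed the same order, with 6.24, 7.06 and 5.60, then 3.45, 2.68 and 1.5, then 5.98, 9.44 and 5.59 CPM (log2 -1.35 with age and 1.49 with treatment, edgeR adjusted p = 0.0175 and 0.0209). Tgfb3 had the reverse order, with 14.4, 11.8 and 13.6, then 18.6, 26.1 and 29.1, then 17.5, 15.1 and 14.8 CPM (0.89 and -0.65, edgeR adjusted p = 0.00819 and 0.0498). Further calls with age were the receptors Tgfbr3 (0.87), Acvr1b (-0.52) and Acvr1 (-0.43), the ligand Inhba (-1.06), the regulators Nedd4l (-0.66), Rnf111 (-0.62) and Smurf1 (-0.45), the inhibitory SMAD Smad6 (1.39), the antagonist Bmper (-0.92) and the target Tsc22d1 (-0.99). With treatment Fkbp1a, which binds type I receptors, was lower (-0.54), and against young mice Tgfbr3 (1.12) and Ski (0.64) were higher. The part of the markers of other cells in the values of these oligodendrocyte genes was not tested.

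In astrocytes 6 of 54 changed with age (11.6% of all genes did), the inhibin subunit Inha (-1.65), the activin receptor Acvr2a (-0.61), the regulators Nedd4l (-0.50) and Skil (-0.90) and the BMP modulator Bmper (-0.56) lower and the ligand Gdf10 (1.64) higher. None was called with treatment in edgeR or DESeq2, 11 of 54 had an unadjusted p under 0.05 (21.6% of all genes), and against young mice Bmper was lower (-1.05) and Bmp5 higher (2.52). In microglia 4 of 25 changed with age (8.76% of all genes), with Junb (1.81) and Skil (0.74) higher and Nedd4l (-0.73) and Acvr1 (-0.71) lower. In pericytes 1 of 25, Ltbp4 (1.98), was higher with age (4.44% of all genes were called). In BECs, precursors and fibroblasts, edgeR called 0 of 28, 38 and 33 in any comparison, and at most 0.548% of all genes. DESeq2 called 2 with age and 3 with treatment in BECs and 2 with age in precursors. Its share of all genes in these classes is not reported here. Inha, Gdf10 and Bmp5 were scarce in astrocytes, at no more than 7.99, 10.3 and 8.61 CPM in any mouse.

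The genes most alike in pattern were found by Pearson's r of log2 CPM over 81 points, each 1 class in 1 mouse, among the 3511 genes tested in every class. The points share libraries and classes, so r is a description. Tgfbr1 was closest to Rrbp1 (0.95), Hps3 (0.93) and Gdi2 (0.91), Smad4 to Clk1 (0.93), Hnrnph1 (0.90) and Thoc2 (0.90), and Bmpr2 to Sgms1 (0.91), Ctnnb1 (0.90) and Gpcpd1 (0.90). Smad2 was closest to Pros1 (0.88), Nfkb1 (0.86) and Itpkb (0.85), Smad7 to Itsn2 (0.86), Bcl2l1 (0.85) and Mal (0.85), and Smad5 to Prkd3, Gab1 and Elf1 (0.86 each). Tmbim6 (0.83) and Map4 (0.81) were among the closest to Smad1. Bmpr1a was closest to Son (0.81), Ogt (0.80) and Uty (0.79), and Smad3 to Ppm1h (0.80), Btbd9 (0.78) and Herc2 (0.77). Bmpr1b was not tested in every class and was left out.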

How the data were processed

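Nuclei were profiled with 10x Genomics 3′ v3.1 chemistry. The authors deposited unnormalised UMI counts, 1 matrix per library, made with Cell Ranger on mm10. The submitters' notes name version 4.0.0 and the matrix headers 7.2.0. Whether intronic reads were counted is not given in the sources used here.

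Kept barcodes had 200 to 5000 genes and no more than 10% of their UMIs from mitochondrial genes (2923 were above the gene limit and 5 above the mitochondrial limit), and 4568 likely doublets were removed by simulated neighbours at 0.8% per 1000 barcodes. Nuclei were clustered (2000 variable genes, 15 components, 20 neighbours, Leiden resolution 0.3, leidenalg 0.10.2) and named from marker lists, with at least 3 markers at 2 times the lower-quartile cluster and in 10% of nuclei. Clusters that met 50% or more of another class's markers, or a mean doublet score over 0.6, stayed unnamed (5901 nuclei). The lower quartile, the 50% rule for neurons and the limit of 0.6 were chosen after the clusters were seen.

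UMIs were summed per mouse and class, filtered with filterByExpr (minimum count 10), TMM-scaled and tested in both directions with edgeR 4.0.16 (quasi-likelihood, all 9 mice in 1 fit per class, adjusted over the genes of the class) in R 4.3.3. The study used DESeq2, which was run as an alternative (1.42.0). Differences between classes used limma 3.58.1 on log2 CPM with a prior count of 1. On simulated data for ageing in excitatory neurons (16912 genes), 69.7% of changes of log2 1 and 99% of log2 2 were recovered, and in BECs (4624 genes) 18.7 and 89.4%. Marker sums use unscaled class totals. Neuron clusters were TMM-scaled one by one, and unscaled totals were an alternative added after the data were seen.

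The 10 genes and the pathway lists were chosen with earlier results of these data known. All 10 genes are described in every class; of the pathway genes, at most 3 per list and comparison with the smallest adjusted p are named. Of the 3 genes most alike to each gene, 1 is not reported here. Alternatives were DESeq2, RLE size factors, no filter, no doublet removal, no upper gene limit, finer clusters, 5% free RNA subtracted, the largest cluster of each class, inhibitory neurons without the striatal-like cluster, fits of the compared groups only, the replicate number as a block, naming against the median cluster (added after the clusters were seen) and leaving out each library. Choroid plexus (125 nuclei) had too few nuclei per mouse. Libraries were treated as separate mice, and intervals cover their spread.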

Additional observations from a re-analysis of the deposited data

Results flagged for a closer look

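The changes of 4 genes with age, and of 1 of these with treatment, differed between classes of nuclei by a direct test of the difference (limma, adjusted p under 0.05). Values are differences of log2 changes. For ageing, Smad3 in excitatory neurons minus astrocytes gave -1.31, Tgfbr1 in excitatory neurons minus oligodendrocytes gave -1.04, and Smad5 for the same pair gave -0.87. Bmpr1b gave 1.76 for excitatory neurons minus oligodendrocytes and 1.87 for astrocytes minus oligodendrocytes. For treatment, Bmpr1b in excitatory neurons minus oligodendrocytes gave -1.90. Beside the values of Bmpr1b stand the astrocyte markers in oligodendrocytes, which summed to 397 to 791 CPM in young, 314 to 465 CPM in aged AAV-EGFP and 429 to 651 CPM in aged AAV-B3GNT3 mice, with 5 of 8 lower in every aged AAV-EGFP mouse than in every young mouse, and the excitatory markers, at 587 to 670.1, 243 to 418 and 456 to 572 CPM, and their part was not tested. Groups of 3 mice were too small for a check of single outlying mice.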

How the results depend on the processing

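The count of calls with age was 9 over 88 tests and stayed within 1.5 times that under the settings that kept all libraries, except the replicate block (4). With treatment (1 call), DESeq2 and no filter on low counts gave 6 each, and the largest cluster of each class, only the groups compared and the replicate block gave 2 each. Against young mice (0 calls), DESeq2, no filter, the largest cluster and naming against the median cluster gave 1 each. The class differences (6 calls) went to 0 with no filter. No result reversed. Leaving out 1 library gave 3 to 17 calls with age, 0 to 6 with treatment, 0 to 2 against young mice and 0 to 7 class differences. Calls with age were 17 without aged AAV-EGFP replicate 1, 4 without replicate 2 or 3 of that group, 5 without young replicate 1 or 2 and 3 without young replicate 3. Calls with treatment were 6 without aged AAV-EGFP replicate 1, 5 without aged AAV-B3GNT3 replicate 3, 2 without young replicate 1 or 3, and 0 without aged AAV-EGFP replicate 2, replicate 3 or aged AAV-B3GNT3 replicate 2. Against young mice there were 2 without young replicate 1 and 1 without aged AAV-EGFP replicate 1. Class differences were 3 without aged AAV-EGFP replicate 2 or young replicate 1, 1 without aged AAV-EGFP replicate 3, 2 without young replicate 3 and 0 without young replicate 2. The causes were not tested. For the alternative settings and the left-out libraries, the share of all genes called is not reported here, apart from DESeq2 in some classes and comparisons. These counts therefore cannot show whether the calls of the genes described here changed more than those of all genes. Bmpr1b in oligodendrocytes and Tgfbr1 and Smad5 in excitatory neurons passed with age under every setting run, with log2 ranges of -1.90 to -1.43, -1.43 to -1.10 and -1.17 to -0.85 over left-out libraries.

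The replicate numbers did not pair the mice. Same-numbered libraries of different groups had a correlation of -0.26 to 0.29 in their deviations from the group means, and 1 to 5 of 9 libraries per class correlated best with their own number. With the number as a block, 4 calls with age, 2 with treatment, 0 against young mice and 5 class differences were made. The calls with age not made under the block were Smad1 in both neuron classes, Smad4 in excitatory neurons and oligodendrocytes, and Tgfbr1 in astrocytes. Finer clustering left precursors and fibroblasts unnamed. Depth limits the vascular classes, in which a Smad1 sum can be as low as 5 UMIs per mouse.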
